A study of Mus musculus with 4 samples.

Results

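The calcium-calmodulin kinases described here are 10 genes, Camk2a, Camk2b, Camk2d, Camk2g, Camk4, Camk1, Camk1d, Camkk1, Camkk2 and Camkv, taken by gene symbol from the 56748 genes of the deposited table. All 10 had UMIs (unique molecular identifiers, each standing for 1 captured RNA molecule), and all 10 passed the filter on low counts in the 4 neuronal classes tested. Calcium that enters a neuron binds calmodulin, and calcium-calmodulin then switches on these kinases. Calcium-calmodulin kinase II (CaMKII), a ring of subunits encoded by Camk2a, Camk2b, Camk2d and Camk2g, is a main protein of the postsynaptic density and is known for its part in long-term potentiation and hippocampal memory. The CaMK kinases, encoded by Camkk1 and Camkk2, phosphorylate CaMKI (Camk1, Camk1d) and CaMKIV (Camk4), and CaMKIV works in the nucleus, where it phosphorylates CREB. Camkv encodes a pseudokinase of the same fold that sits on vesicles and at synapses and lacks kinase activity.

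The study asked how repeated social defeat (RSD) changes the hippocampus of male mice, and whether this depends on microglia or on the interleukin-1 receptor of glutamatergic neurons. Single nuclei were barcoded by split-pool ligation and sequenced. RSD placed a CD-1 aggressor in the home cage for 2 h on each of 6 nights, controls were left undisturbed, and nuclei were collected 14 h after the last night. There were 8 pools, 1 for each condition, and each held the hippocampi of 3 mice.

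In the diet experiment the mice were C57BL/6, aged 5 to 7 weeks, and ate AIN-76A chow that was plain (Con-Veh, Stress-Veh) or held 1200 mg/kg PLX5622, an inhibitor of the CSF1 receptor that removes microglia, from 7 days before stress (Con-PLX, Stress-PLX). In the genotype experiment, Vglut2-Cre drove deletion of Il1r1 in glutamatergic neurons (Con-nIL-1R1-/-, Stress-nIL-1R1-/-), and the IL-1R1+/+ mice lacked Cre (Con-IL-1R1+/+, Stress-IL-1R1+/+). These mice were bred in-house, so that strain source, diet and experiment cannot be told apart between the experiments. A control pool and the stress pool of the same diet or genotype form a pair, which gives 4 pairs. The 4 sublibraries analysed here each held nuclei of all 8 pools and are technical repeats. Mice within a pool cannot be separated, and no condition was repeated in another pool. With pair and stress fitted, p-values rest on how the stress difference varies between the 4 pairs. They also rest on dispersion (spread around the fit) that edgeR shares across the genes of a class. The pairs differ in diet, genotype or experiment, so real differences in the stress effect between them are part of the spread between pairs. The diet and genotype comparisons set pairs against each other. No diet or genotype had a repeat pair within its experiment, so their p-values do not measure how a diet or genotype difference varies.

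Of 57350 nuclei deposited, 56834 were used, and 0 barcodes were shared between pools. Depth was uneven. The median nucleus held 598 UMIs in Con-PLX and 628 UMIs in Stress-PLX, 1325.5 UMIs in Stress-Veh and 2563 to 5012 UMIs in the other 5 pools. Clusters were called X-like only from fixed markers, which gave 10465 DG-like (dentate gyrus granule), 8974 CA1-like, 4261 CA2/3-like and 5904 INH-like (inhibitory) nuclei, while 18298 nuclei (32.2%) stayed unnamed. In DG-like nuclei Il1r1 stood at 11.21 and 9.166 CPM in the nIL-1R1-/- pools against 61.72 and 29.48 CPM in the IL-1R1+/+ pools (genotype log2 fold change -2.17 ± 0.23 SE, adjusted p = 5.06e-05, edgeR quasi-likelihood test). Microglia-like nuclei numbered 9 in Con-PLX and 8 in Stress-PLX, against 151 to 200 in the other pools. Csf1r had 0 UMIs in those of the PLX pools, but so few shallow nuclei cannot show a loss of its RNA. The labels were thus borne out by Il1r1 in DG-like nuclei and by the number of microglia-like nuclei.

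Levels are given as CPM, the UMIs of a gene divided by all UMIs of the class in that pool and scaled in the usual way. Nuclear reads come largely from unspliced RNA, so long genes collect more of them, and levels of different genes are set side by side only as CPM per kb of annotated gene span. The spans on mm39 (GENCODE vM39) ran from 10.04 kb for Camk1 (chr6:113311071-113321106, minus strand) to 421.1 kb for Camk1d (chr2:5298268-5719375, minus strand). Camk2b lies at chr11:5915791-6016362 (minus strand), Camk2d at chr3:126389945-126639982 (plus), Camk2g at chr14:20784942-20844541 (minus), Camkk1 at chr11:72909421-72933202 (plus), Camkk2 at chr5:122869233-122917739 (minus) and Camkv at chr9:107811702-107826897 (plus). Camk2a and Camk4 are both on chromosome 18. Genes on the other strand overlap 9 of the members (all but Camk2a), and whether the counting used strand is not given in the sources used here. The overlapping gene with the most UMIs relative to its member was Ogg1, with 514 UMIs against 2877 for Camk1, and Ykt6 held 1652 UMIs against 138428 for Camk2b.

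Set side by side per kb, Camk2a had the highest level of the 10 genes in all 4 neuronal classes, at 26.58 CPM per kb in DG-like, 26.26 in CA1-like, 24.23 in CA2/3-like and 10.48 in INH-like nuclei (means of 8 pools). Camkv and Camk2b came next in the 3 excitatory classes. Camkv stood at 10.43, 16.44 and 12.57 CPM per kb and Camk2b at 12.09, 8.28 and 10.05 CPM per kb in DG-, CA1- and CA2/3-like nuclei. At the other end Camk2d had 0.07631 CPM per kb in DG-like, 0.369 in CA1-like, 0.1007 in CA2/3-like and 0.398 in INH-like nuclei, the lowest of the 10 genes in each of the 4 classes. These orders are descriptions with no test, since the clusters were built from the variable genes of the same nuclei.

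**Figure D1:**
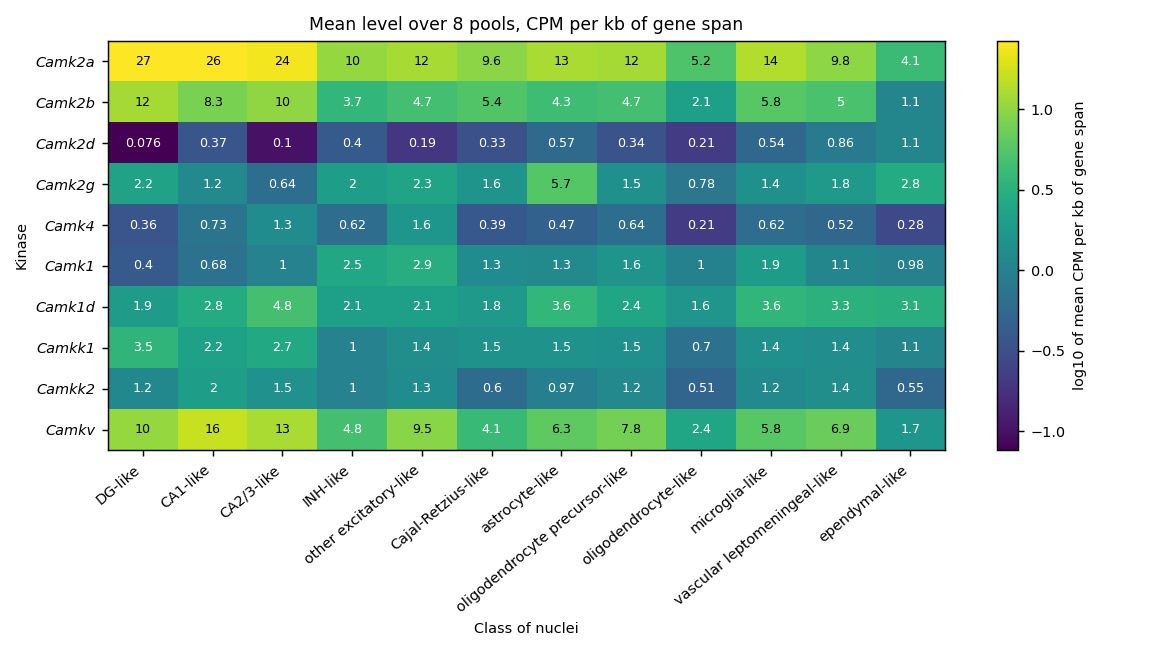
Heat map of the mean level of each kinase gene (8 pools, CPM per kb of gene span) in 12 marker-named classes. Camk2a is the highest gene in DG-, CA1-, CA2/3- and INH-like nuclei, at 10.48 to 26.58 CPM per kb.

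Among the CaMKII subunits, Camk2a (the alpha subunit, which pairs with beta in forebrain neurons) stood at 1668 ± 335.4 CPM in DG-like, 1648 ± 422.3 in CA1-like and 1520 ± 352.0 in CA2/3-like nuclei against 657.8 ± 159.7 in INH-like nuclei (mean ± SD, n = 8 pools). Its DG-like level was above the INH-like level in 8 of 8 pools, by 2.13 to 3.18 times. DG- and CA1-like nuclei had nearly the same level, with DG higher in 6 of 8 pools. Camk2b, whose beta subunit binds F-actin and holds the kinase at the cytoskeleton, was ordered more sharply within each pool. It stood at 1216 ± 335.8 CPM in DG-like, 1011 ± 381.5 in CA2/3-like, 832.9 ± 318.9 in CA1-like and 373.0 ± 109.7 in INH-like nuclei. The DG-like level was above the CA1-like level in 8 of 8 pools (median ratio 1.51), and the CA1-like level was below the CA2/3-like level in 8 of 8 (median ratio 0.826), although the ranges over pools of neighbouring classes overlapped.

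The other CaMKII subunits were distributed differently. Camk2g, the gamma subunit, which can carry calmodulin to the nucleus, was highest in astrocyte-like nuclei at 338.2 ± 84.17 CPM, against 132.3 ± 24.68 in DG-like, 118.2 ± 11.15 in INH-like, 73.98 ± 11.24 in CA1-like and 37.9 ± 6.683 in CA2/3-like nuclei. Its DG-like level was 2.39 to 4.08 times its CA2/3-like level in the 8 pools. Camk2d, the delta subunit, best known from heart muscle, was highest in ependymal-like nuclei at 281.0 ± 121.2 CPM and stood at 99.49 ± 13.16 in INH-like, 92.25 ± 54.74 in CA1-like, 25.17 ± 4.268 in CA2/3-like and 19.08 ± 4.476 in DG-like nuclei. The CA1-like value varied far more between pools than the INH-like value, at about the same mean.

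Camk4 and Camk1d, whose proteins the CaMK kinases activate, were both highest in CA2/3-like nuclei among the 4 classes. Camk4 stood at 342.6 ± 79.3 CPM in CA2/3-like, 189.7 ± 39.37 in CA1-like, 161.2 ± 11.32 in INH-like and 92.66 ± 10.24 in DG-like nuclei, and the CA2/3-like level was above the INH-like level in 8 of 8 pools (1.62 to 2.71 times). A class of other excitatory nuclei, named from markers such as Hs3st4, Foxp2 and Tle4, had still more Camk4 (429.7 ± 52.45 CPM). Camk1d stood at 2002 ± 164.3 CPM in CA2/3-like, 1165 ± 200.9 in CA1-like, 866.9 ± 143.9 in INH-like and 808.7 ± 156.2 in DG-like nuclei, with DG-like below CA2/3-like in 8 of 8 pools (0.315 to 0.51 times). Camk1 had few UMIs, 85 in DG-like, 187 in CA1-like, 185 in CA2/3-like and 699 in INH-like nuclei. Its level was 25.31 ± 4.359 CPM in INH-like against 4.043 ± 3.315 in DG-like nuclei, and INH-like was the highest of the 4 classes in 8 of 8 pools.

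The upstream kinases had opposite orders in DG- and CA1-like nuclei. Camkk1 was higher in DG-like (83.59 ± 12.77 CPM) than in CA2/3-like (63.13 ± 13.73), CA1-like (51.38 ± 15.18) and INH-like nuclei (24.57 ± 4.834), and the DG-like level was 2.92 to 4.05 times the INH-like level. Camkk2, which also activates AMP-activated kinase, was highest in CA1-like nuclei (96.13 ± 13.71 CPM), with 71.76 ± 6.533 in CA2/3-like, 56.78 ± 10.17 in DG-like and 50.13 ± 10.85 in INH-like nuclei. DG-like was below CA1-like in 8 of 8 pools (0.498 to 0.681 times). Camkv shared that order at the top, with 249.8 ± 104.5 CPM in CA1-like, 191.1 ± 94.95 in CA2/3-like, 158.6 ± 44.09 in DG-like and 72.5 ± 21.9 in INH-like nuclei. It was above the INH-like level by 2.63 to 4.47 times in CA1-like nuclei of the 8 pools.

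**Figure D2:**
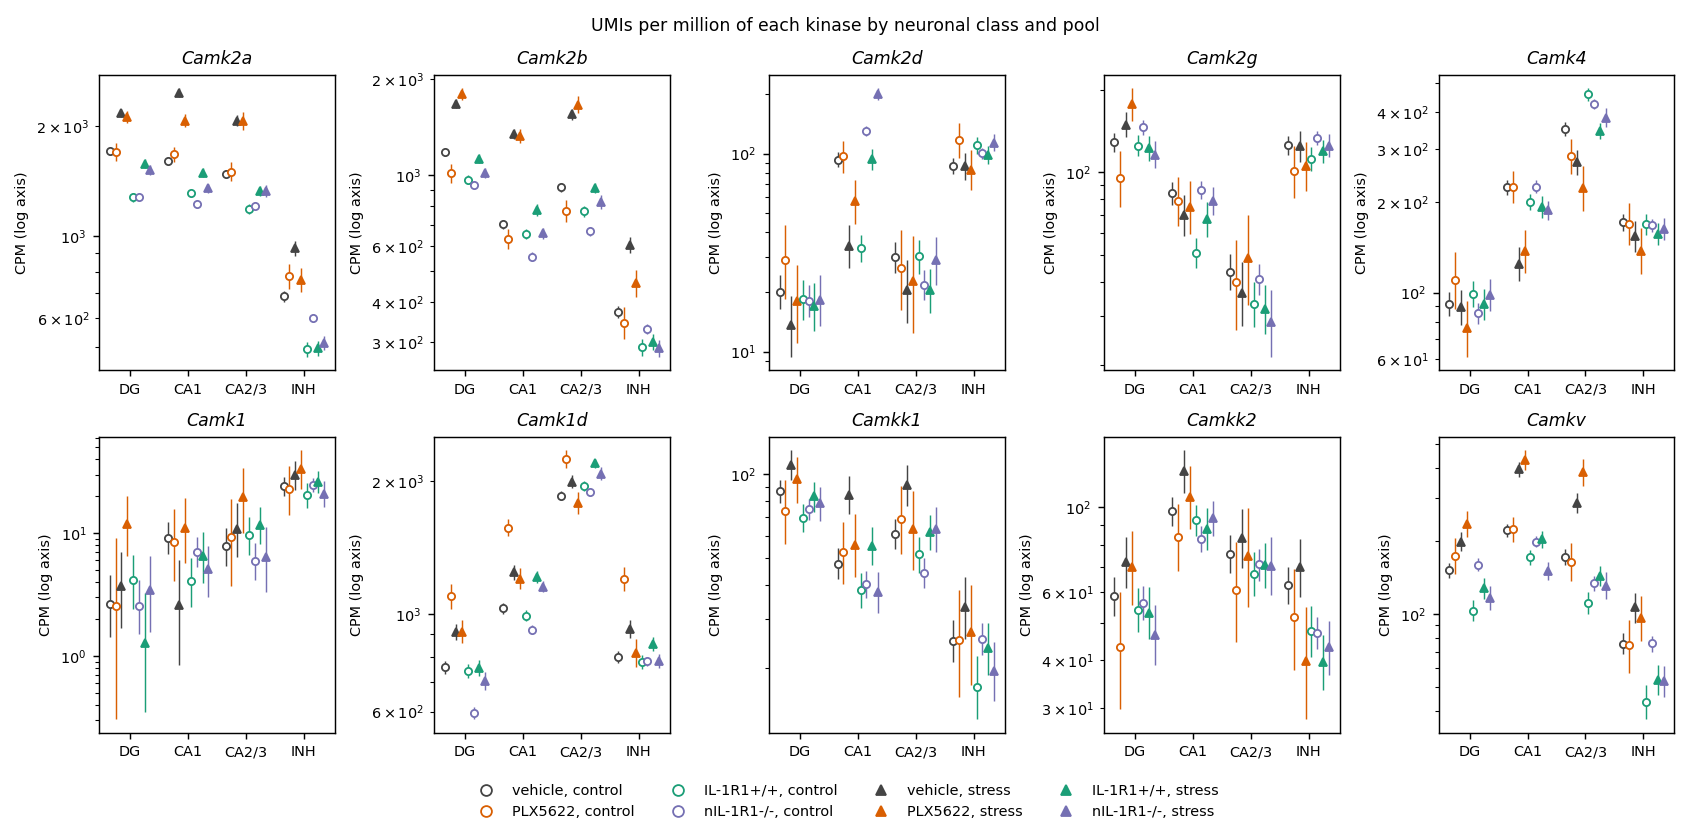
Level of each kinase gene (CPM, log axis) in each of the 8 pools by class, with exact Poisson 95% intervals that cover counting error only. Circles are control pools, triangles stress pools and colours the 4 pairs. Camk4 and Camk1d are highest in CA2/3-like nuclei, Camk1 in INH-like nuclei, and the wide spread of Camk2d in CA1-like nuclei runs from 33.23 to 199.4 CPM.

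RNA released from lysed cells adds UMIs to nuclei that do not express a gene. Camk2a in microglia-like nuclei stood at 57.6% to 78.6% of the mean of the 3 excitatory classes of the same pool (median 62.0%, 6 pools with at least 20 such nuclei). The median was 48.2% in astrocyte-like, 47.8% in oligodendrocyte precursor-like and 17.6% in oligodendrocyte-like nuclei. For Camk2b the medians were 64.0% in microglia-like, 44.3% in astrocyte-like and 19.7% in oligodendrocyte-like nuclei. For the other members the microglia-like median was 68.1% for Camkk1, 74.2% for Camkv, 93.1% for Camk4 and 95.9% for Camk1d. It was 105% for Camkk2, 128% for Camk2g, 278% for Camk2d and 428% for Camk1. How much of these values was expression in microglia and how much free RNA was not tested. Class means over 8 pools were set against the microglia-like median of the 6 pools with at least 20 such nuclei. Those of Camk2a, Camk2b, Camkk1 and Camkv lay above it in the 3 excitatory classes. So did Camkk2 in CA1-like, Camk4 and Camk1d in CA2/3-like, and Camk2g in DG- and INH-like nuclei. The remaining means over the 4 classes lay below it and, by this mark alone, are not read as expression above background. Among them were Camk2a (657.8 against 917 CPM), Camk2b (373.0 against 600 CPM) and Camk1 (25.31 against 26.3 CPM) in INH-like nuclei. Camk4 in CA1-like (189.7 against 207 CPM) and Camkk2 in CA2/3-like nuclei (71.76 against 78.7 CPM) also lay below. Camk2d lay below in all 4 classes. Its microglia-like median (158 CPM) also lay above its astrocyte-like (150 CPM), oligodendrocyte precursor-like (90.2 CPM) and oligodendrocyte-like medians (52.5 CPM). If microglia express Camk2d or Camk1, the mark is too high for that gene, and a mean below it does not show a lack of expression. The mark depends on the glial class, since oligodendrocyte-like medians were lower than microglia-like medians for every member. They were 260 CPM for Camk2a, 184 CPM for Camk2b, 51.0 CPM for Camk4 and 8.19 CPM for Camk1. Which glial class best gives the level of free RNA, and its share in the excitatory classes, was not tested.

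Some kinase levels split within a class. Camk4 in the CA2/3-like cluster led by Fyb2, Map3k15 and Lrp2 stood at 436.5 to 835.3 CPM over the 8 pools, against 179.7 to 348.8 CPM in the cluster led by Mndal, Ifi203 and Nectin3, and was higher in 8 of 8 pools. Among INH-like nuclei, the Vip-led cluster had 250.9 to 333.7 CPM of Camk4 against 90.22 to 131.8 CPM in the Lhx6- and Crhbp-led cluster, again in 8 of 8 pools. In DG-like nuclei the cluster led by Dsp and Slc26a10 had 91.19 to 132.8 CPM against 43.35 to 68.76 CPM in the cluster led by Gm30551 and Mylk3. Camk1 ran the other way between these inhibitory clusters, with 19.92 to 36.44 CPM in the Lhx6- and Crhbp-led and 10.87 to 24.51 CPM in the Vip-led cluster (7 of 8 pools). The remaining INH-like cluster, led by C87487 and Hapln1, had 15.97 to 54.76 CPM, and the Lhx6- and Crhbp-led cluster was above it in 3 of 8 pools. Camk1 counts per pool were as low as 4 UMIs in the Vip-led and 2 UMIs in the Hapln1-led cluster. An unnamed cluster of 153 nuclei led by Fat2, Cnpy1 and Gabra6 had 974.7 CPM of Camk4. The DG- and INH-like class means of Camk4 (92.66 and 161.2 CPM) lay below the microglia-like median of 207 CPM. The part of free RNA in the splits of these 2 classes was not tested.

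Camk2d was the member with the sharpest split. A CA1-like cluster of 813 nuclei led by Cpa6, C1qtnf7 and Cdc14a held 162.2 to 545.8 CPM of Camk2d, while the largest CA1-like cluster (led by B230110G15Rik and Fibcd1) held 12.52 to 44.6 CPM and the remaining one 0 to 72.15 CPM. The Cpa6-led cluster was higher in 8 of 8 pools. Its share of CA1-like nuclei varied from pool to pool, at 11.2% in Con-Veh and 1.32% in Stress-Veh, 9.52% in Con-PLX and 4.42% in Stress-PLX, 2.6% in Con-IL-1R1+/+ before 13.1% in its stress partner, and 14.1% in Con-nIL-1R1-/- before 23.3% in its stress partner. The 3 pools with the largest shares were in the genotype experiment and the smallest was Stress-Veh.

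**Figure D3:**
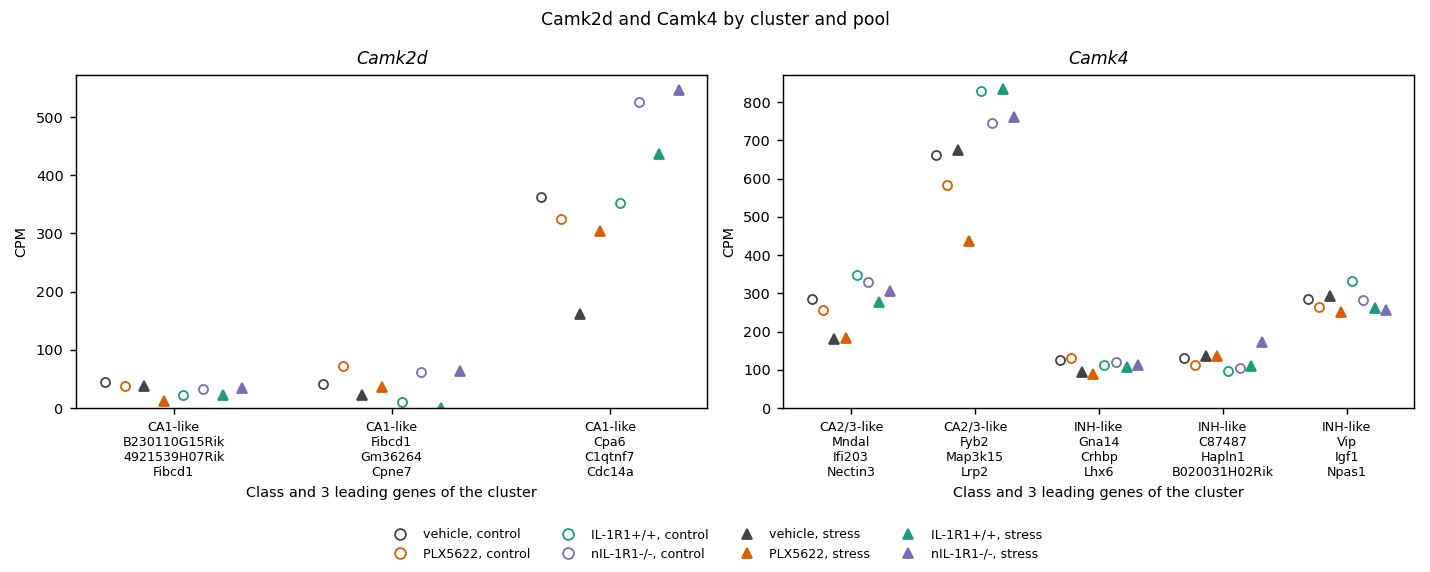
Camk2d in the 3 CA1-like clusters and Camk4 in CA2/3-like and INH-like clusters (CPM), 1 point per pool. The Cpa6-led cluster lies at 162.2 to 545.8 CPM of Camk2d, above the other CA1-like clusters in 8 of 8 pools, and the Vip-led cluster lies above the other INH-like clusters for Camk4.

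The stress comparison asked whether RSD moved these genes in each neuronal class. None of the 40 tests (10 genes in 4 classes) passed at an adjusted p of 0.05 in edgeR, fitted with pair and stress over the 8 pools (3 residual degrees of freedom). At an unadjusted p under 0.05 there were 10 (25%), against 12.4% of all 48016 tests. DESeq2 called 1 member test, Camk2b in CA2/3-like nuclei (adjusted p = 0.0357), among 168 it called over all genes, where edgeR called 17. Over all genes edgeR called 0.0771% in DG-like, 0.00821% in CA1-like, 0.0536% in CA2/3-like and 0.00772% in INH-like nuclei, so few genes of any kind passed. The 10 lay in CA2/3-like (5), CA1-like (3) and DG-like nuclei (2), and 0 lay in INH-like nuclei. They were Camk2a and Camk2b in the 3 excitatory classes, Camk4 in CA1- and CA2/3-like, and Camkv and Camkk1 in CA2/3-like nuclei. The median log2 fold change of the members was 0.12, 0.13, 0.18 and 0.01 in the 4 classes, against 0, 0.01, 0 and 0 over all genes.

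Camk2b had the smallest p of the members. In CA1-like nuclei the control pools stood at 702.4 (Con-Veh), 633.1 (Con-PLX), 655.6 (Con-IL-1R1+/+) and 556.0 CPM (Con-nIL-1R1-/-), and the stress pools at 1348 (Stress-Veh), 1331 (Stress-PLX), 779.7 (Stress-IL-1R1+/+) and 657.7 CPM (Stress-nIL-1R1-/-). Stress pools were higher in 4 of 4 pairs, 1.92 and 2.1 times in the diet experiment and 1.19 and 1.18 times in the genotype experiment, and Stress-nIL-1R1-/- lay within the control range. The fitted log2 fold change was 0.59 ± 0.16 (SE, adjusted p = 0.233, edgeR).

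CA2/3-like nuclei gave the same picture for Camk2b. Control pools stood at 917.3, 773.2, 770.5 and 667.3 CPM (Con-Veh, Con-PLX, Con-IL-1R1+/+, Con-nIL-1R1-/-) and their stress partners at 1558, 1669, 910.9 and 823.8 CPM. The pair ratios were 1.7, 2.16, 1.18 and 1.23, with a fitted log2 fold change of 0.57 ± 0.15 (adjusted p = 0.109, edgeR). In DG-like nuclei the control values were 1183, 1016, 969.6 and 931.1 CPM and the stress values 1680, 1803, 1129 and 1019 CPM, with ratios of 1.42, 1.77, 1.16 and 1.09 and a log2 fold change of 0.39 ± 0.12 (adjusted p = 0.197, edgeR). Control and stress pools overlapped in all 3 classes, because the genotype stress pools lay near the vehicle control. INH-like nuclei had ratios of 1.63, 1.33, 1.04 and 0.868 and a log2 fold change of 0.22 ± 0.13 (adjusted p = 0.661, edgeR).

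The Camk2b ratio was above 1 in all 8 excitatory clusters in the vehicle pair (1.3 to 1.84) and in the PLX pair (1.36 to 2.21). It was above 1 in 7 of 8 clusters in the IL-1R1+/+ pair (0.873 to 1.63) and in 7 of 8 in the nIL-1R1-/- pair (0.991 to 1.31). In the vehicle pair the CA1-like class ratio of 1.92 was above the ratio of every cluster. The makeup of that class differed too, with 1 cluster at 17.8% of CA1-like nuclei in Con-Veh and 68.1% in Stress-Veh. The part of this makeup in the class ratio was not tested. Clusters of a pool share their libraries and are not replicates. Within each of the 4 sublibraries, taken alone, the mean log2 ratio over the 4 pairs was 0.57 to 0.69 in CA1-like, 0.59 to 0.61 in CA2/3-like and 0.34 to 0.50 in DG-like nuclei. When only the largest cluster of each class was used, an alternative added after seeing the data, the CA1-like log2 fold change of Camk2b was 0.53 ± 0.11 (adjusted p = 0.0205, edgeR, with 0.244% of all tests called).

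Astrocyte-like nuclei differed between the pairs too. Their Camk2b ratio of stress to control was 1.63 in the vehicle pair, 2.22 in the PLX pair, 0.593 in the IL-1R1+/+ pair and 0.763 in the nIL-1R1-/- pair. Oligodendrocyte-like nuclei had 1.85, 1.37, 1.38 and 0.867, and oligodendrocyte precursor-like nuclei 1.5, 1.12, 0.834 and 0.677. The ratios of these glial classes were above 1 in the diet pairs, as in the neurons. In the genotype pairs they were below 1 in astrocyte- and precursor-like nuclei, where the excitatory class ratios were above 1. Microglia-like nuclei had 721 CPM of Camk2b in Con-Veh and 978 CPM in Stress-Veh. They had 488 CPM in Con-IL-1R1+/+ and 601 CPM in Stress-IL-1R1+/+, a rise as in the excitatory neurons. In Con-nIL-1R1-/- and Stress-nIL-1R1-/- they had 600 and 466 CPM, and the PLX pools held too few of them. The part of free RNA in the neuronal ratios was not tested.

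Camk2a, which encodes the partner subunit, was likewise higher in the stress pool of 4 of 4 pairs in the 3 excitatory classes. In DG-like nuclei control pools stood at 1706, 1699, 1277 and 1280 CPM and stress pools at 2169, 2115, 1579 and 1517 CPM (Veh, PLX, IL-1R1+/+, nIL-1R1-/-). The ratios of 1.27, 1.24, 1.24 and 1.19 were nearly equal across the pairs, and the groups overlapped because the genotype pools lay below the diet pools, stressed or not. The log2 fold change was 0.27 ± 0.11 (adjusted p = 0.332, edgeR). CA1-like nuclei had ratios of 1.53, 1.24, 1.14 and 1.11 (0.28 ± 0.13, adjusted p = 0.365, edgeR) and CA2/3-like nuclei 1.4, 1.37, 1.12 and 1.09 (0.27 ± 0.13, adjusted p = 0.309, edgeR). The ratio was above 1 in all 8 excitatory clusters in each of the 4 pairs, from 1.04 to 1.71. In the vehicle pair the CA1-like class ratio of 1.53 was above the highest cluster ratio of 1.44, and the part of class makeup in it was not tested. In INH-like nuclei the ratios of 1.35, 0.98, 1.01 and 0.855 lay on either side of 1. Oligodendrocyte-like nuclei had Camk2a ratios of 2.5, 0.764, 0.904 and 0.844. Astrocyte-like nuclei had 1.26, 1.17, 0.831 and 0.756, and oligodendrocyte precursor-like nuclei 1.42, 0.955, 1.02 and 0.533. The part of free RNA in the neuronal ratios of Camk2a was not tested.

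**Figure D4:**
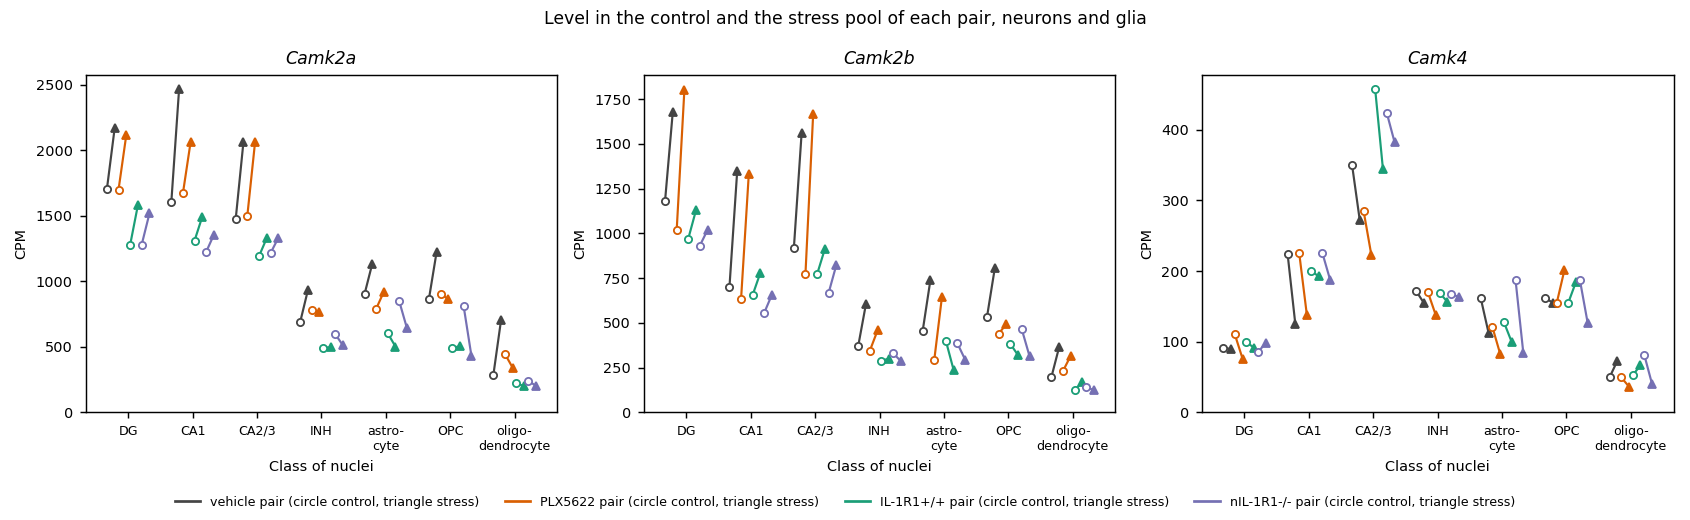
Camk2a, Camk2b and Camk4 (CPM) in the control and the stress pool of each pair, joined by a line, in 4 neuronal and 3 glial classes. Camk2b lines slope upward in all 4 pairs in DG-like, CA1-like and CA2/3-like nuclei, steepest in the vehicle and PLX pairs, and the Camk4 lines slope downward in CA1-like and CA2/3-like nuclei.

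Camk4 had the opposite sign. In CA1-like nuclei the control pools lay close together at 224.0, 225.4, 200.2 and 225.5 CPM, and the stress pools at 124.7, 137.1, 192.8 and 187.7 CPM (Veh, PLX, IL-1R1+/+, nIL-1R1-/-). Every stress pool lay below every control pool, with ratios of 0.557, 0.608, 0.963 and 0.832. The log2 fold change was -0.49 ± 0.15 (adjusted p = 0.242, edgeR). In INH-like nuclei the groups did not overlap either, at 171.2, 169.8, 168.9 and 167.8 CPM in controls and 154.2, 137.8, 156.7 and 163.1 CPM after stress, but the log2 fold change was only -0.15 ± 0.10 (adjusted p = 0.727, edgeR). How often the groups fail to overlap over all genes was not counted, so these separations are descriptions only. Mean Camk4 in CA1- and INH-like nuclei (189.7 and 161.2 CPM) also lay below the microglia-like median of 207 CPM. The part of free RNA in these differences was not tested.

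CA2/3-like nuclei had Camk4 at 350.9, 285.1, 457.3 and 424.0 CPM in controls and 272.4, 223.0, 344.9 and 382.9 CPM after stress. The ratio was below 1 in 4 of 4 pairs (0.776, 0.782, 0.754 and 0.903), while the groups overlapped (log2 fold change -0.35 ± 0.13, adjusted p = 0.201, edgeR). By cluster the ratio was below 1 in 4 of 4 pairs in the largest CA1-like cluster (0.508, 0.497, 0.911 and 0.755) and in the Mndal-led CA2/3-like cluster (0.629, 0.72, 0.793 and 0.923). The Fyb2-led CA2/3-like cluster, where Camk4 was highest, had ratios of 1.02, 0.747, 1.01 and 1.02. Over all 8 excitatory clusters the ratio was below 1 in 5 in the vehicle pair, 7 in the PLX pair and 5 in each genotype pair, with the highest ratios at 1.29, 1.04, 1.66 and 1.64. DG-like nuclei had 0.977, 0.688, 0.921 and 1.15 (adjusted p = 0.83, edgeR). Astrocyte-like nuclei, with 17 to 128 UMIs of Camk4 per pool, also stood lower in the stress pool of 4 of 4 pairs, at 161.3, 120.8, 127.4 and 187.1 CPM in controls and 112.8, 83.05, 99.52 and 84.47 CPM after stress, and the part of free RNA in this was not tested. Oligodendrocyte precursor-like nuclei had 161.8, 155, 155.4 and 186.9 CPM in controls and 155, 201.8, 185.1 and 126.5 CPM after stress, which went both ways.

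Camkv was higher after stress in the diet experiment. In CA1-like nuclei it stood at 221.5 and 223.7 CPM in Con-Veh and Con-PLX against 394.9 and 432.7 CPM in Stress-Veh and Stress-PLX. In the genotype experiment it stood at 171.7 CPM in Con-IL-1R1+/+ and 203.8 CPM in Stress-IL-1R1+/+, and at 199.2 CPM in Con-nIL-1R1-/- and 151.2 CPM in Stress-nIL-1R1-/-. Only the nIL-1R1-/- pair thus had the lower value in the stress pool, and this held in the other 3 classes too, with ratios of 0.728 in DG-like, 0.977 in CA2/3-like and 0.699 in INH-like nuclei. The nIL-1R1-/- pair was also lower in oligodendrocyte-like (0.447), astrocyte-like (0.495) and oligodendrocyte precursor-like nuclei (0.824), and the vehicle pair was higher there (1.61, 1.82 and 1.36), and the part of free RNA in this was not tested. The fit over 8 pools gave 0.37 ± 0.19 in CA1-like (adjusted p = 0.411) and 0.52 ± 0.17 in CA2/3-like nuclei (adjusted p = 0.152, edgeR).

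The remaining members moved little or unevenly with stress. Camkk1 in DG-like nuclei was 86.44, 73.58, 69.56 and 74.56 CPM in controls and 107.7, 95.64, 82.98 and 78.29 CPM after stress, higher in 4 of 4 pairs (log2 fold change 0.22 ± 0.11, adjusted p = 0.447, edgeR). Its CA2/3-like value was 0.33 ± 0.15 (adjusted p = 0.306, edgeR). Camkk2 lay between -0.13 and 0.16, Camk2g between -0.21 and 0.10 and Camk1d between -0.06 and 0.09 on the log2 scale in the 4 classes. Camk2d in CA1-like nuclei had a log2 fold change of 0.04 ± 0.34. Its pair ratios of 0.368, 0.595, 2.82 and 1.54 pointed opposite ways in the 2 experiments, and they changed with the clusters counted as CA1-like. For Camk1 the SE reached 0.42 in DG-like nuclei, where 85 UMIs over 8 pools could not show a difference of this size.

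**Figure D5:**
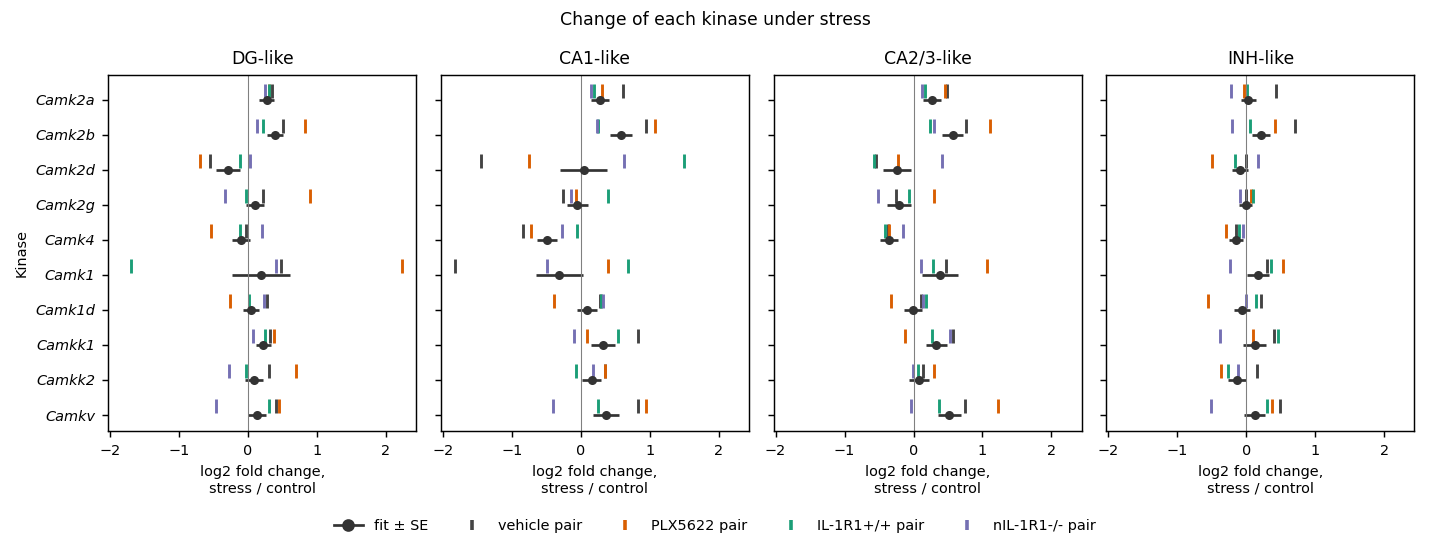
Log2 fold change of stress against control for each kinase gene in 4 classes (points, edgeR fit over 8 pools, bars ± SE), with a tick for the log2 ratio of each pair. Camk2b lies at 0.39 to 0.59 in DG-like, CA1-like and CA2/3-like nuclei, Camk4 at -0.49 in CA1-like nuclei, and the ticks of Camk2d in CA1-like nuclei spread to both sides of 0.

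Because the pairs of the 2 experiments differed, the difference of the stress effect between them (diet experiment minus genotype experiment) was tested as 1 interaction term, a comparison added after seeing the data. By edgeR it called 3 of the 40 member tests, among 446 called over all genes. DESeq2 also called 3, among 222 over all genes. The share that edgeR called over all genes was 0.0514% in DG-like, 2.4% in CA1-like, 1.2% in CA2/3-like and 0.108% in INH-like nuclei. All 3 edgeR calls were in CA1-like nuclei, namely Camkv (0.95 ± 0.22 on the log2 scale, adjusted p = 0.0147), Camk2b (0.74 ± 0.19, adjusted p = 0.0294) and Camk2d (-2.15 ± 0.29, adjusted p = 3.97e-05, edgeR). Camk4 in CA1-like nuclei had -0.64 ± 0.21 (adjusted p = 0.112, edgeR) and Camk2b in CA2/3-like nuclei 0.63 ± 0.19 (adjusted p = 0.0902, edgeR).

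Within the 4 diet pools alone (1 residual degree of freedom), Camk2b had 0.94 ± 0.21 in CA1-like (adjusted p = 0.000512) and 0.86 ± 0.18 in CA2/3-like nuclei (adjusted p = 0.00187, edgeR). Within the 4 genotype pools alone it had 0.23 ± 0.09 (adjusted p = 0.251) and 0.26 ± 0.09 (adjusted p = 0.171, edgeR). Camkv had 0.83 ± 0.20 in CA1-like nuclei of the diet pools (adjusted p = 0.00103) and -0.1 in the genotype pools, and Camk4 had -0.85 ± 0.20 (adjusted p = 0.00122) and -0.18 ± 0.11 (adjusted p = 0.596, edgeR). Camk2d was called within each experiment but with opposite signs, at -1.18 ± 0.23 (adjusted p = 3.4e-05) and 0.96 ± 0.15 (adjusted p = 1.39e-05, edgeR). In all, 6 member tests were called in the diet pools, where 6.25% of all tests were, and 1 in the genotype pools, where 1.13% were. With 1 residual degree of freedom, the p-values within an experiment rest largely on the dispersion that edgeR shares across genes. They say little about how the stress difference of a gene varies between pairs. These calls therefore cannot show a stress effect that repeats between pools.

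The makeup of the CA1-like class differed between the pools beside these calls. A cluster led by Fibcd1, Gm36264 and Cpne7, whose nuclei had a median of 0.622 times the UMIs of their own pools, made up 70.5% of CA1-like nuclei in Con-PLX, 87.8% in Stress-PLX and 68.1% in Stress-Veh, against 2.72% to 17.8% in the other 5 pools. In DG-like nuclei a cluster with 0.528 times the UMIs likewise made up 74.5%, 82.1% and 46.1% in those pools and 7.16% to 22.6% in the others. With only the largest cluster of each class, 0 of the 3 calls were made. Camk2d then had -0.48 ± 0.36 (adjusted p = 0.734), Camk2b 0.38 (adjusted p = 0.34) and Camkv 0.33 (adjusted p = 0.623, edgeR) for the difference between experiments. Thinning each nucleus to 500 UMIs also left 0 calls, but the differences stayed near their size, at -1.89 ± 0.46 for Camk2d (adjusted p = 0.0613), 0.77 ± 0.22 for Camk2b (adjusted p = 0.134) and 0.89 ± 0.29 for Camkv (adjusted p = 0.184, edgeR).

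The diet comparison set the PLX pools against the vehicle pools, with stress and control pools on each side. It called 0 of 40 member tests, with 2 (5%) at an unadjusted p under 0.05 against 5.64% of all genes' tests, and DESeq2 called 0. Over all genes edgeR called 0.0771% in DG-like nuclei and 0% in each of the other 3 classes. Camk1d had the more even differences, 0.33 ± 0.17 in DG-like (adjusted p = 0.707), 0.34 ± 0.21 in CA1-like (adjusted p = 0.965), 0.29 ± 0.18 in INH-like (adjusted p = 0.952) and 0.11 ± 0.19 in CA2/3-like nuclei (adjusted p = 0.997, edgeR). Con-PLX was the high pool. In CA1-like nuclei Camk1d stood at 1571 CPM in Con-PLX against 1029, 991.5 and 921.3 CPM in the other controls, and at 1202 CPM in Stress-PLX against 1242, 1213 and 1154 CPM in the other stress pools. Without Con-PLX the diet difference was 0.02 ± 0.14 in DG-like (adjusted p = 0.974) and -0.11 ± 0.17 in CA1-like nuclei (adjusted p = 0.898, edgeR), and without Stress-PLX it was 0.61 ± 0.14 in DG-like nuclei (adjusted p = 0.0359, edgeR). The stress-to-control ratio of Camk1d was below 1 in the PLX pair in all 8 excitatory clusters (0.703 to 0.86) and above 1 in the vehicle pair in all 8 (1.06 to 1.29). The interaction of stress and diet was -0.85 ± 0.31 in INH-like nuclei (adjusted p = 0.993, edgeR).

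Those 2 tests, a share near the background, were of Camk1 and Camkk2. Camk1 in DG-like nuclei had 1.37 ± 0.64 (adjusted p = 0.648, edgeR), from 13 and 9 UMIs in the vehicle pools and 2 and 14 UMIs in the PLX pools. Without Stress-PLX it was -0.21, and without Con-PLX 2.04. The 95% Poisson interval of the highest value, 11.95 CPM in Stress-PLX, was 6.536 to 20.06 CPM. Camkk2 in INH-like nuclei stood at 62.61 and 69.71 CPM in Con-Veh and Stress-Veh against 51.61 and 39.83 CPM in Con-PLX and Stress-PLX (-0.45 ± 0.21, adjusted p = 0.937, edgeR).

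The interaction of stress and diet called 0 of 40 member tests by edgeR and 0 by DESeq2, with 1 (2.5%) at an unadjusted p under 0.05 against 3.52% of all genes' tests, while edgeR called 0.0514% of all genes in DG-like, 0% in CA1-like, 0% in CA2/3-like and 0.0232% in INH-like nuclei. Camk2b had similar stress ratios of 1.92 and 2.1 in the vehicle and PLX pairs in CA1-like nuclei.

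The genotype comparison set the nIL-1R1-/- pools against the IL-1R1+/+ pools. It called 0 of 40 member tests by edgeR and 0 by DESeq2, with 3 (7.5%) at an unadjusted p under 0.05 against 2.15% of all genes' tests. Over all genes edgeR called 0.00856% in DG-like nuclei and 0% in each of the other 3 classes. The lowest p was for Camk2d in CA1-like nuclei (1.40 ± 0.45, adjusted p = 1, edgeR). It stood at 33.23 (control) and 93.80 CPM (stress) in the IL-1R1+/+ pools against 129.9 and 199.4 CPM in the nIL-1R1-/- pools. A loss of Il1r1 was not seen in CA1-like nuclei, where its genotype log2 fold change of 0.10 ± 0.57 (SE) was too uncertain to show one. For Camk2d the nIL-1R1-/- pools were higher than both IL-1R1+/+ pools. The Cpa6-led cluster made up 14.1% and 23.3% of CA1-like nuclei in the nIL-1R1-/- pools and 2.6% and 13.1% in the IL-1R1+/+ pools. With the largest cluster alone the difference was 0.56 ± 0.22 (adjusted p = 1, edgeR). The size of the Camk2d difference thus changed with the clusters counted as CA1-like. With 15 principal components, a cluster with Cpa6 among its leading genes stayed unnamed, while a cluster led by C1qtnf7 was named CA1-like.

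Camk2g in CA1-like nuclei stood at 86.46 and 78.65 CPM in the nIL-1R1-/- control and stress pools against 51.08 and 67.59 CPM in the IL-1R1+/+ pools (0.48 ± 0.20, adjusted p = 1, edgeR). Camkv in INH-like nuclei stood at 75.83 and 53.03 CPM against 43.64 and 53.65 CPM (0.45 ± 0.20, adjusted p = 1, edgeR). In DG-like nuclei, where the deletion was seen, the genotype differences of the members ran from -0.19 ± 0.17 (Camk1d) to 0.30 ± 0.18 (Camkv). Those of Camk2a and Camk4 were -0.01 ± 0.16 and -0.05 ± 0.17 (adjusted p = 1 for each, edgeR).

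Whether the response to stress differed between genotypes was tested as an interaction. It called 0 of 40 member tests by edgeR and 0 by DESeq2, with 2 (5%) at an unadjusted p under 0.05 against 1.31% of all genes' tests, and edgeR called 0% of all genes in each of the 4 classes. The 2 were Camkv in INH-like (-0.87 ± 0.39, adjusted p = 1) and DG-like nuclei (-0.78 ± 0.37, adjusted p = 1, edgeR). Camkv in DG-like nuclei stood at 103.6 (control) and 128.2 CPM (stress) in IL-1R1+/+ mice, and at 160.0 and 116.5 CPM in nIL-1R1-/- mice. For Camk2b, the ratios of the genotype pairs were 1.16 and 1.09 in DG-like, 1.19 and 1.18 in CA1-like and 1.18 and 1.23 in CA2/3-like nuclei.

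The wider calcium-calmodulin pathway was read from 9 lists of 50 genes, of which 187 tests could be made per comparison. Under stress 0 genes rose and 0 fell by edgeR, with 33 tests (17.6%, against 12.4% of all genes' tests) at an unadjusted p under 0.05. DESeq2 called 1 of these lists' tests, among 168 it called over all genes. Diet and genotype likewise gave 0 and 0, with 11 tests (5.88% against 5.64%) and 3 tests (1.6% against 2.15%) at an unadjusted p under 0.05, both near the background, and 0 called by DESeq2. Calm2, which encodes calmodulin, had log2 fold changes of -0.23, -0.19, -0.18 and -0.01 in DG-, CA1-, CA2/3- and INH-like nuclei. Camk2n1, which encodes an inhibitor protein that binds active CaMKII, had 0.39 ± 0.13 (adjusted p = 0.239), 0.36 (adjusted p = 0.38), 0.68 ± 0.18 (adjusted p = 0.109) and 0.52 ± 0.17 (adjusted p = 0.416, edgeR), the same sign as Camk2b in all 4 classes.

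Calcineurin is the phosphatase that works against CaMKII. Its catalytic subunit Ppp3ca had -0.20, -0.32, -0.37 and -0.29 in DG-, CA1-, CA2/3- and INH-like nuclei (lowest adjusted p = 0.205, edgeR), and 4 of its 6 tested genes in CA2/3-like nuclei had an unadjusted p under 0.05 (over all genes of that class the share was 15.7%), with 0 called after adjustment and a median log2 fold change of -0.25 over the 6. Among the CaMKII targets and anchors, Gria1, a glutamate receptor subunit that CaMKII phosphorylates, had 0.04, -0.06, -0.07 and -0.13, and Grin2b, the NMDA receptor subunit that anchors CaMKII, had -0.13, -0.31, -0.27 and -0.08. Creb1, whose protein CaMKIV phosphorylates, had -0.26, -0.34, -0.30 and -0.15 (lowest adjusted p = 0.386, edgeR). Of the calmodulin buffers, Nrgn had -0.10, -0.20, -0.13 and -0.19, and Pcp4 had -0.07, 0.65, -0.52 and -0.09 (lowest adjusted p = 0.336, edgeR). The AMP-activated kinase genes Prkaa1 and Prkaa2, targets of CaMKK2, lay between -0.20 and 0.15.

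The genes whose levels over the 12 classes were most like those of each member were found by Pearson's r of log2(CPM + 1) among 11156 genes, as a description of 12 points that share their pools. Camk2a was closest to Grin2a (r = 0.968) and Cacng8 (r = 0.961), which encode glutamate receptor proteins. Camk2b was closest to Dbn1 (r = 0.968), which encodes the actin-binding protein drebrin, and to Mrtfa (r = 0.967). Camk4 was closest to Hs3st4 (r = 0.927) and Cabp1 (r = 0.926), and Camkk1 to Crtc1 (r = 0.96) and Ppp3ca (r = 0.936). Hs3st4 is a marker used to name the other excitatory class, where Camk4 was highest, so its likeness to Camk4 is partly fixed by the naming. Camkk2 and Camkv shared the same 2 genes, Dok6 (r = 0.944 and 0.959) and Rnf165 (r = 0.942 and 0.965). Camk2g was closest to Sparcl1 (r = 0.907) and Ghr (r = 0.868), Camk1d to Akap13 (r = 0.887) and Asph (r = 0.858), Camk2d to Pdzrn3 (r = 0.91) and Capn2 (r = 0.874), and Camk1 to Limk1 (r = 0.883) and Chrm2 (r = 0.861).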

How the data were processed

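Hippocampal nuclei of 8 pools were analysed. The authors deposited a sparse matrix of UMI counts per gene and nucleus for each pool, made with the Parse Biosciences pipeline on mm39; the processing notes name Seurat 4.1.1. They excluded nuclei over 20% mitochondrial reads, and 516 such nuclei were removed here from the deposited counts. Columns of no mapped sample numbered 0. The authors tested nuclei; here nuclei were not treated as replicates.

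Nuclei were clustered with scanpy 1.11.5 and leidenalg 0.10.2 (2000 variable genes, 30 principal components, 15 neighbours, resolution 1.0, fixed seed) and named from fixed markers. A name needed at least 3 detected markers and a score 1.25 times the next. That a neuronal cluster also had to have a marker of its own among its 10 leading genes was added after cluster tables were seen and before members were compared. UMIs were summed per pool and class and tested with edgeR 4.0.16 (R 4.3.3, TMM, filterByExpr, quasi-likelihood), with pair and stress as terms, and Benjamini-Hochberg adjustment over all genes of the class and contrast. The main model holds the pair as a block, since control and stress pools share diet or genotype. Interactions left 2 residual degrees of freedom. DESeq2 1.42.0, thinning to 500 UMIs, 15 principal components, removal of the 6% of nuclei scoring highest as doublets per pool and other alternatives were run. Scripts were tested on simulated data. Exact Poisson intervals (scipy 1.17.1) cover counting error only.

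The 10 members and all lists were chosen with earlier results of these data known. All members are named; of each pathway list, the first genes or those that passed the test; and for each member the 2 most alike genes with at least 500 UMIs. Of 56748 gene IDs, 56017 were in GENCODE vM39.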

Additional observations from a re-analysis of the deposited data

Results flagged for a closer look

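In 8 of 80 groups of 4 pools, 1 pool stood far from the other 3 by Dixon's test; chance alone flags about 1 in 20 groups. Camk1d in Con-PLX was the high pool among controls in CA1-like (1571 CPM) and INH-like nuclei (1201 CPM). Con-IL-1R1+/+ was the low control for Camk4 in CA1-like (200.2 CPM), Camkk1 in INH-like (17.17 CPM) and Camkv in INH-like nuclei (43.64 CPM), and the high control for Camk1 in DG-like nuclei (4.164 CPM). Stress-Veh was the high stress pool for Camkk1 in CA2/3-like (91.0 CPM) and Camkk2 in INH-like nuclei (69.71 CPM).

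The stress effect in CA1-like nuclei differed between the diet and the genotype experiment by an interaction term for Camkv (0.95 on the log2 scale), Camk2d (-2.15) and Camk2b (0.74). Camk1d stood at 14070 CPM (5963 UMIs) in an unnamed cluster of 512 nuclei that no comparison used, against 771.5 to 2270 CPM in the other unnamed clusters. That cluster was led by mt-Co1, Il31ra and mt-Rnr2, its nuclei had a median of 566 UMIs and 12.5% mitochondrial UMIs against 0.112% in other nuclei, and each pool gave 16 to 145 of them. The part of RNA quality in this level was not tested.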

How the results depend on the processing

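Members called under stress (0 in the main test) numbered 1 with 15 principal components, 1 with DESeq2, 1 with the largest cluster of each class, 3 without a filter on low counts (Camk2b in the 3 excitatory classes), 6 in the diet pools and 1 in the genotype pools, and 0 to 0 when each pool was left out in turn. Genes called under stress (17) numbered 86 with 15 principal components, 168 with DESeq2, 85 with every neuronal cluster classed, 107 with the largest clusters, 753 without the filter, 60 after thinning, 2350 in the diet pools and 530 in the genotype pools, and 6 (without Con-Veh) to 146 (without Con-nIL-1R1-/-) with a pool left out. Members called for diet numbered 1 with every neuronal cluster classed and 0 to 1 with a pool left out (Camk1d in DG-like nuclei, 0.61, adjusted p = 0.0359 by edgeR, without Stress-PLX). Genes called for diet (9) numbered 365 with 15 principal components, 438 with every cluster classed, 3 without TMM, 142 without the filter, 136 in the diet pools and 1 to 146 with a pool left out. Members called for genotype numbered 1 without the filter, 1 in the genotype pools and 0 to 1 with a pool left out (Camk2d in CA1-like nuclei, 2.56, adjusted p = 0.0262 by edgeR, without Stress-IL-1R1+/+). Genes called for genotype (1) numbered 2 with the largest clusters, 60 without the filter, 202 in the genotype pools and 0 to 21 with a pool left out. Members differing in stress effect between experiments (3) numbered 0 with 15 principal components, 1 with every cluster classed, 0 with the largest clusters and 0 after thinning, where the differences kept about their size (Camk2d -1.89, Camk2b 0.77, Camkv 0.89). The interactions with genotype and diet called 0 members in every alternative run. The stress fits in the diet pools or the genotype pools alone left 1 residual degree of freedom. Their calls rest largely on dispersion shared across genes. The cause of the changes between alternatives was not tested.

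Without the pair block, 1 gene was called under stress. Camk2b then had 0.42, 0.65 and 0.62 in DG-, CA1- and CA2/3-like nuclei (adjusted p = 0.608, 0.553 and 0.453, edgeR). No member call changed. Of 2967 alternative log2 fold changes of members, 2613 kept their sign and their side of the threshold, 325 changed sign without a call, 16 became called, 11 lost a call and 2 reversed. The reversed ones were Camk2d in CA2/3-like nuclei for diet, 0.98 with every neuronal cluster classed, and Camk2d in CA1-like nuclei for stress, -1.18 in the diet pools. Thinning put 158 of 320 CPM values outside their interval, 27 of them by over 1.5 times. With 15 principal components 82 of 320 lay outside, 13 of them by over 1.5 times. Depth was lowest in the PLX pools, and 1 pool per condition limits all tests.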
